A study of Homo sapiens with 2 samples.

Results

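The genes described here encode lysosomal membrane proteins, cathepsins and other acid hydrolases, and autophagy proteins, with LAMP3 as the gene that gives the set its name. The set held 47 listed genes, none of them on chromosome 10, and a gene counted as measured when a feature of the array table was annotated to it. By that rule 34 of the 47 were measured, each by 1 feature, among 14812 named genes in all. RNA came from MCF-10A, an established and non-tumorigenic human mammary epithelial cell line, in a line that stably expresses ARHGAP4 fused to EGFP and in a line that stably expresses the EGFP vector. Each line is represented by 1 whole-transcript Affymetrix array. The labels do not say whether either line is a single clone or a pool, or which promoter drives the construct. With 1 array per group the differences cannot be checked against replicates, so they are given without p-value, SE or SD.

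Lysosomes are acidic compartments in which hydrolases break down proteins, glycans and lipids that arrive by endocytosis or by autophagy. Their membrane is lined by heavily glycosylated proteins of the LAMP family, and cargo for autophagy is enclosed by a double membrane that carries lipid-bound LC3 and GABARAP proteins. Many of these genes are under the transcription factors TFEB and TFE3, which are held in the cytoplasm when the kinase mTORC1 is active at the lysosome. LAMP3, also called DC-LAMP, is known from mature dendritic cells and alveolar type II cells and is induced by interferon and by endoplasmic reticulum stress in other cells.

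TFEB and TFE3 bind an E-box with the letters CACGTG, and the element through which they act on lysosomal genes has the core TCACGTGA. Both strings read the same on either strand, and the longer one contains the shorter. They were looked up in the RefSeq promoter windows of GRCh38.p14, which run from 250 bases before to 50 bases after a transcription start. The table held 37 of the 47 genes; LAMP2, LAMP3, LAPTM4B, CTSB, CTSK, CTSS, LGMN, HEXA, NAGLU and ASAH1 had no entry. The measured members with CACGTG are shown, since these windows carry the letters through which lysosomal genes are known to be controlled together. Each line gives 40 bases around the first match, 5′ to 3′ on the gene's strand, with CACGTG in capitals:
LAMP1 (chr13:113297030-113297069, plus strand): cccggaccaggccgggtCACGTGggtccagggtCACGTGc
CD63 (chr12:55729167-55729206, minus strand): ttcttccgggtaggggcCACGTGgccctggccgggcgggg
MCOLN1 (chr19:7522566-7522605, plus strand): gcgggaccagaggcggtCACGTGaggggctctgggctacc
CTSA (chr20:45891276-45891315, plus strand): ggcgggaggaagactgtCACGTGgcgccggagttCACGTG
CTSD (chr11:1763952-1763991, minus strand): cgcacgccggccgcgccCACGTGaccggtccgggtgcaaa
CTSF (chr11:66568707-66568746, minus strand): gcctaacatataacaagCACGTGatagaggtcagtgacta
NEU1 (chr6:31862925-31862964, minus strand): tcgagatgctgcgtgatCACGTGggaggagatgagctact

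Of the 25 measured members in the promoter table, 7 held CACGTG in at least 1 window, which is 28.0%, against 11.0% of the 10736 measured genes in the table. TCACGTGA was found in LAMP1, MCOLN1 and CTSA, 12.0% of these members, against 1.75% of the measured genes. Among all 27305 genes of the table the shares were 8.77% for CACGTG and 1.18% for TCACGTGA. LAMP1 had 6 copies of CACGTG in its window, while MCOLN1, CTSA and CTSF had 2 each. In CTSD, CTSA and MCOLN1 the first match began at position -47, -42 and -41, counted from the transcription start. A match is a run of letters and does not show that a factor binds there.

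LAMP3 had a log2 expression value of 7.37 in the EGFP-ARHGAP4 array, against 5.10 in the EGFP vector array. The difference of 2.27 on the log2 scale, or 4.82-fold, was the largest of the 34 members and ranked 5 among the 7685 genes past the level filter. That filter keeps a gene whose higher value reaches 4.02, the middle of the gene-level values of both arrays, and LAMP3 was above it in each array. ARHGAP4 itself stood at 6.68 in the EGFP-ARHGAP4 array and 4.49 in the EGFP vector array, a difference of 2.19 in the direction of the labels. In RNA from bulk cultures, a change in the number of cells that express LAMP3 and a change in LAMP3 RNA per cell cannot be told apart.

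**Figure D1:**
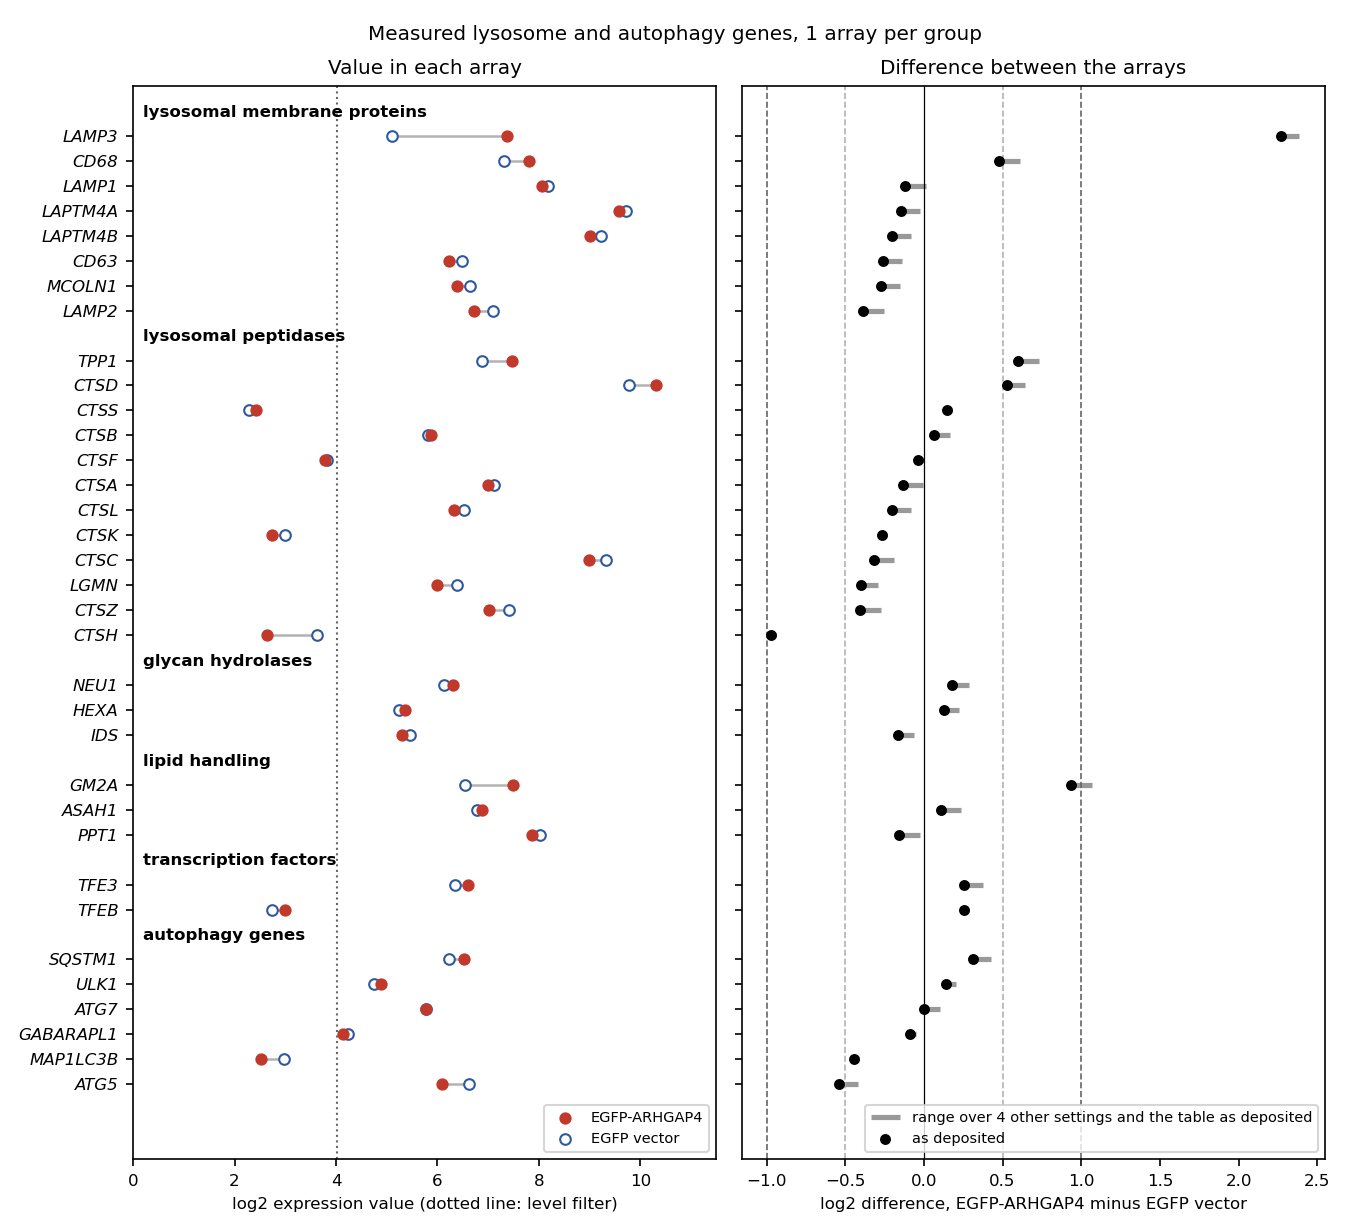
The left panel plots the log2 expression value of each of the 34 measured members in the EGFP-ARHGAP4 array (filled red) and the EGFP vector array (open blue), by role; the right panel plots the log2 difference with its range over 4 other settings. Taking the highest feature, 1 of these settings, could not change a member, since each had 1 feature. LAMP3 is the only member beyond 1 as deposited, GM2A lies at 0.94 and CTSH at -0.97, and 28 members lie within 0.5 of 0.

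As deposited, none of the other 7 measured membrane protein genes of the set reached a difference of 0.5. LAMP1 and LAMP2, the abundant structural LAMP proteins, stood at 8.06 and 6.71 in the EGFP-ARHGAP4 array, against 8.18 and 7.10 in the EGFP vector array, differences of -0.12 and -0.38; that of LAMP1 was 0.012 once a loess curve of difference on level was removed. CD68, a LAMP family protein known from macrophages but also made by other cells, was at 7.80 in the EGFP-ARHGAP4 array and 7.32 in the EGFP vector array, 1.39-fold higher, or 0.48 on the log2 scale, and past 0.5 after quantile normalization, at 0.58, centring, at 0.51, or loess, at 0.61. The tetraspanin CD63 was at 6.23 in the EGFP-ARHGAP4 array and 6.49 in the EGFP vector array. The multispanning protein genes LAPTM4A and LAPTM4B differed by -0.15 and -0.20, and MCOLN1, the calcium channel of lysosomes, by -0.27. Of the 8 measured membrane genes of the set, 6 were below 0, or 75%, against 61.4% of all genes past the level filter. The median of the 8 was -0.17, or -0.052 after loess. SCARB2, the receptor that carries glucocerebrosidase, the cholesterol exporter gene NPC1 and CLN3 had no named feature.

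The cathepsins, which degrade proteins in the lysosome, went in both directions. CTSD, the main aspartyl protease of lysosomes, was at 10.31 in the EGFP-ARHGAP4 array and 9.78 in the EGFP vector array, 1.44-fold higher. TPP1, a tripeptidyl peptidase lost in a childhood neuronal storage disease, was at 7.47 in the EGFP-ARHGAP4 array and 6.87 in the EGFP vector array, 1.51-fold higher. Both were thus higher by at least 0.5, and no other of the 12 peptidases was.

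CTSZ and LGMN, a carboxypeptidase and an asparaginyl endopeptidase, were lower by 1.33-fold and 1.32-fold. CTSC, which activates granule proteases, was at 8.996 in the EGFP-ARHGAP4 array and 9.31 in the EGFP vector array. CTSL, CTSA and CTSB, which include the broad cysteine proteases L and B, differed by -0.20, -0.14 and 0.07. These differences were all smaller than 0.5.

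CTSH, an aminopeptidase, had the lowest difference of all members, -0.97, with 2.64 in the EGFP-ARHGAP4 array and 3.62 in the EGFP vector array. Both values lay under the level filter, where differences narrow towards background, so its 1.97-fold is approximate. CTSF, CTSK and CTSS were under the filter in both arrays as well, with differences of -0.04, -0.27 and 0.14. Of the 12 peptidase genes, 8 were below 0, or 66.7%, against 52.9% of all measured genes and 61.4% of those past the filter. Their median was -0.17, or -0.066 after quantile normalization and -0.057 after loess.

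Among the enzymes and cofactors of lipid breakdown, GM2A had the largest difference. It encodes the activator protein that presents ganglioside GM2 to beta-hexosaminidase. Its value was 7.48 in the EGFP-ARHGAP4 array and 6.55 in the EGFP vector array, 1.91-fold higher, which ranked 82 among the genes past the filter. After quantile normalization or loess GM2A passed 2-fold as well, at 1.03 and 1.07 on the log2 scale. HEXA, the alpha subunit of the enzyme that GM2A serves, was at 5.37 in the EGFP-ARHGAP4 array and 5.24 in the EGFP vector array, a difference of 0.13.

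The ceramidase gene ASAH1 differed by 0.11 and the palmitoyl thioesterase gene PPT1 by -0.16. NEU1, the lysosomal sialidase, differed by 0.18, and IDS, which removes sulfate from heparan and dermatan sulfate, by -0.16. As deposited, none of these 4 genes or HEXA differed by more than 0.21. That value is the pooled SD of the array differences of single features around the mean of their gene. That SD rests on 336 genes with several features and describes agreement between features, not between cultures. After quantile normalization NEU1 was at 0.27 and HEXA at 0.22, and after loess NEU1 was at 0.29 and ASAH1 at 0.23. PPT1 and IDS stayed within 0.21 under both settings. GAA, GLA, GLB1, GUSB, IDUA, MAN2B1, NAGLU, NPC2 and SMPD1 had no named feature, so 7 of the 10 glycan hydrolase genes were not analysed here.

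The transcription factor genes TFEB and TFE3 both differed by a little over 0.25. TFE3 was at 6.60 in the EGFP-ARHGAP4 array and 6.34 in the EGFP vector array. TFEB was under the level filter in both arrays, at 2.999 in EGFP-ARHGAP4 and 2.74 in EGFP vector. The RNA of these genes does not report their activity, which is set largely by where the proteins are in the cell. Among their possible targets, the 7 measured members with CACGTG had a median difference of -0.12, from -0.27 for MCOLN1 to 0.53 for CTSD. The 18 without it also had a median of -0.12, from -0.97 to 0.94. All 7 members with these letters lay inside the range of those without. The ends of that range were CTSH, under the level filter, and GM2A, so lying inside it says little about the letters. LAMP3 and the other members without a promoter entry are in neither group. Over all measured genes in the promoter table the medians were -0.080 with CACGTG and -0.042 without.

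Of the 6 measured autophagy genes, ATG5 was the only one past 0.5. SQSTM1, the cargo receptor p62, was at 6.53 in the EGFP-ARHGAP4 array and 6.22 in the EGFP vector array, 1.24-fold higher. ULK1, the kinase that starts autophagy, differed by 0.14, GABARAPL1 by -0.09, and ATG7, the activating enzyme for LC3 lipidation, held the same value of 5.78 in both arrays. Identical values also occurred in 6.96% of all features, but in a smaller share, 148 of 7685, of the genes past the level filter, as ATG7 is.

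ATG5, part of the conjugate that attaches LC3 to lipid, was at 6.08 in the EGFP-ARHGAP4 array and 6.62 in the EGFP vector array, 1.45-fold lower. Its difference of -0.54 was -0.44 after quantile normalization and -0.42 after loess, inside 0.5. MAP1LC3B was under the filter in both arrays, at 2.53 in EGFP-ARHGAP4 and 2.97 in EGFP vector; its near-identical copy MAP1LC3B2 could share signal, so the value is uncertain. WIPI1 had no named feature.

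Of the 34 measured members, 28 differed by less than 0.5. Past 2-fold there was 1 of 34 measured members higher, 2.94%, against 0.581% of all measured genes, and 0 of 34 lower, against 0.486%. At a log2 difference of 0.5, 4 of 34 were higher, 11.8%, against 4.25% of all measured genes. These were LAMP3, GM2A, TPP1 and CTSD. The 2 that were lower by 0.5, CTSH and ATG5, made up 5.88%, against 6.47% of all measured genes.

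Of the 34 members, 28 passed the level filter, each of them in both arrays. Among these 28, 1 was 2-fold higher, 3.57%, against 1.002% of the 7685 genes past the filter, and 0 were 2-fold lower, against 0.794%. At 0.5, 4 were higher, 14.3%, against 5.15%, and 1 was lower, 3.57%, against 9.81%. Outside chromosome 10, where all members lie, the shares of genes past the filter at 0.5 were 4.64% higher and 9.43% lower. As deposited, the median difference was -0.10 over the 34 members, with quartiles of -0.26 and 0.17. It was -0.03 over all measured genes, and -0.10, with quartiles of -0.29 and 0.12, over the genes past the filter. Without LAMP3 the median of the other 33 was -0.12. A count of 4 members rests on few genes, and with no replicates and no test the difference in shares is a description of these 2 arrays.

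**Figure D2:**
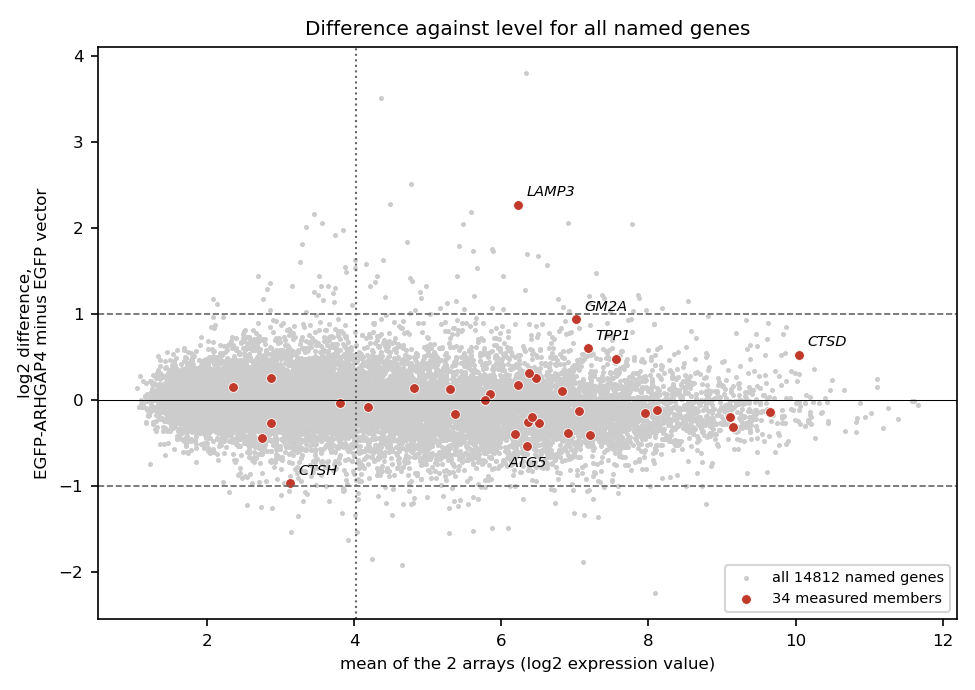
Each grey point is 1 of the 14812 named genes, plotted by its mean log2 expression value over both arrays and its log2 difference, EGFP-ARHGAP4 minus EGFP vector; the 34 measured members are red, and the dotted line is the level filter. LAMP3 at 2.27 lies far above the other members, most of which lie inside the grey cloud.

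None of the genes around LAMP3 on chromosome 3 came near its difference. Each member past 0.5 was set beside the 10 genes past the level filter on each side of it. The 20 genes around LAMP3 had a median of -0.18, and lay between -0.81 for ECT2 and 0.46 for KLHL24. MCCC1, the nearest on one side, was at -0.09, and KLHL24 was the nearest on the other. The 20 genes around GM2A on chromosome 5 had a median of -0.17 and lay between -0.76 and 0.30. Those around TPP1 on chromosome 11 had a median of -0.13, and lay between -1.21 for ZNF215 and 1.38 for TRIM22.

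CTSD lay beside higher genes and ATG5 among lower ones. The genes next to CTSD on chromosome 11, IFITM10 and SYT8, were at 0.33 and 0.80, while the median of its 20 neighbours was 0.09. The 20 genes around ATG5 on chromosome 6 had a median of -0.35, and 7 of them were past 0.5 in either direction. The part of such regional differences in the values of CTSD and ATG5 was not tested. CTSH on chromosome 15 had neighbours with a median of -0.10.

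**Figure D3:**
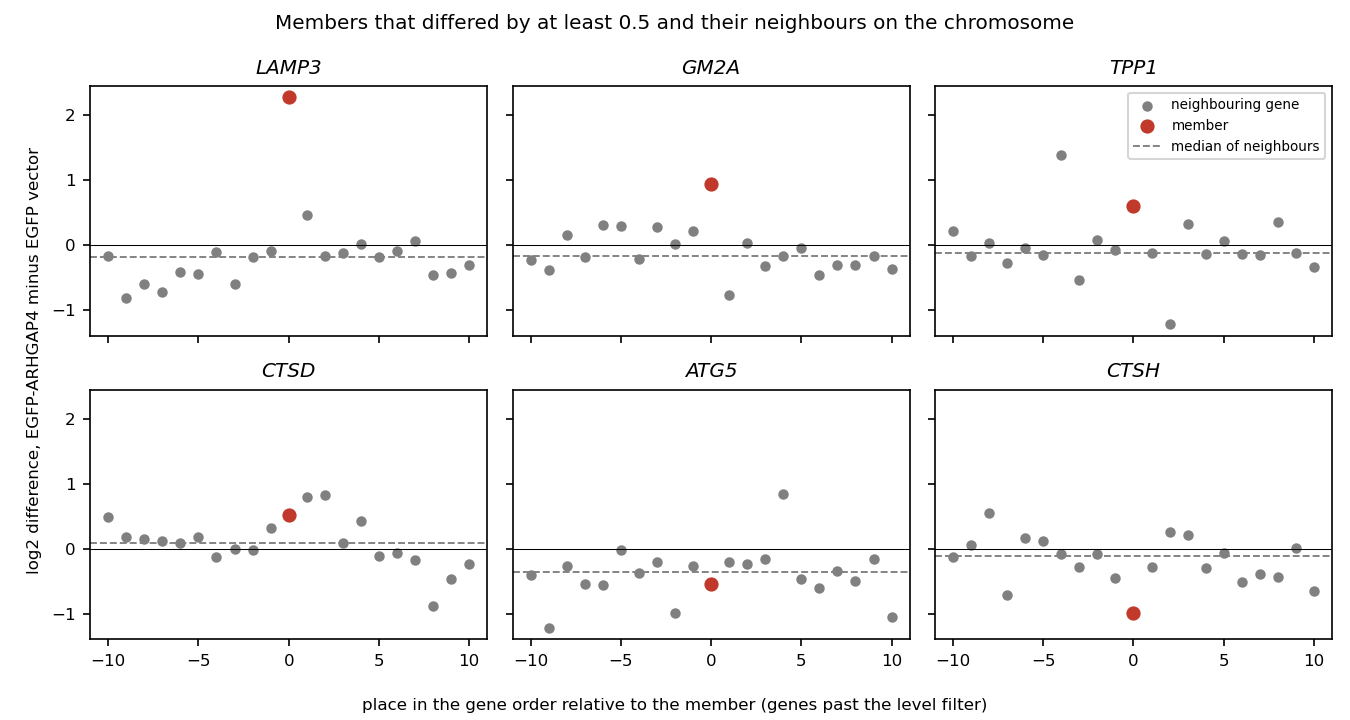
Each panel plots the log2 difference, EGFP-ARHGAP4 minus EGFP vector, of a member (red) and of the 10 genes past the level filter on each side of it (grey) by their order along the chromosome; the dashed line is the median of the neighbours. LAMP3 and GM2A lie above all of their neighbours, CTSH lies below all of its neighbours, and ATG5 lies among genes with a median of -0.35.

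Further genes of the lysosome were taken from lists that share no gene with the members. Of 32 further membrane proteins and transporters outside chromosome 10, 16 were measured. Their median difference was -0.09, and 2 of them reached 0.5 upwards, or 12.5%, and 0 downwards. For these lists too, the shares of all measured genes past 0.5 are 4.25% higher and 6.47% lower, and those of genes past the filter 5.15% higher and 9.81% lower. LAPTM5, a relative of LAPTM4A and LAPTM4B known from blood cells, was at 6.497 in the EGFP-ARHGAP4 array and 4.45 in the EGFP vector array, 4.13-fold higher. TMEM175, a proton and potassium channel of lysosomes, was at 5.62 in the EGFP-ARHGAP4 array and 4.97 in the EGFP vector array.

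Of 35 further acid hydrolases and their activators 18 were measured, with a median of 0.04. ARSA, the arylsulfatase that acts on sulfatide, was 0.88 higher, but under the filter in both arrays, at 3.75 in EGFP-ARHGAP4 and 2.87 in EGFP vector. Over the 11 hydrolase genes past the filter the median was -0.13 and none differed by 0.5. None of the 25 listed subunits of the V-ATPase, the proton pump of lysosomes, had a named feature, so the pump was not analysed here.

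The 25 measured genes of sorting to and fusion with lysosomes, of 47 listed, had a median of -0.14. STX7, a syntaxin of late endosomes, was the only one past 0.5 as deposited, with 5.77 in the EGFP-ARHGAP4 array and 6.39 in the EGFP vector array. The mannose 6-phosphate receptor genes M6PR and IGF2R, whose proteins carry hydrolases to the lysosome, differed by -0.20 and 0.15.

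Of 30 genes that control mTORC1 and TFEB, 24 were measured, with a median of -0.05. By at least 0.5, 4 were higher, or 16.7%, and 2 were lower, or 8.33%, and among the 18 past the filter 3 were higher and 1 lower. The sestrins, which restrain mTORC1, were all higher. SESN1 was at 6.27 in the EGFP-ARHGAP4 array and 5.46 in the EGFP vector array, and SESN2 at 6.37 in EGFP-ARHGAP4 and 5.71 in EGFP vector. SESN3, under the filter in both arrays, was at 2.93 in EGFP-ARHGAP4 and 2.11 in EGFP vector. AKT1S1, an inhibitory partner of mTORC1, was 0.58 higher. FNIP1, a folliculin partner, was at -0.58 and the Rag GTPase gene RRAGB, under the filter in both arrays, at -0.52, while MTOR itself differed by -0.05.

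Among 30 measured further autophagy genes, of 39 listed, 3 were higher and 2 lower by at least 0.5, and the median was -0.02. TP53INP1, an autophagy regulator and p53 target, was at 6.32 in the EGFP-ARHGAP4 array and 4.53 in the EGFP vector array, 1.79 higher on the log2 scale. GABARAP was at 8.41 in the EGFP-ARHGAP4 array and 7.82 in the EGFP vector array, and WDR45, a phosphoinositide-binding protein, differed by 0.51. The kinase gene ULK2 differed by -0.67 and ATG16L1, the partner of ATG5, by -0.55.

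The 10 measured autophagy receptors, of 14 listed, had a median of 0.01. Here the mitophagy receptor gene BNIP3L was 1.03 higher, at 7.44 in the EGFP-ARHGAP4 array and 6.41 in the EGFP vector array, and SEC62, a receptor for endoplasmic reticulum, was at -0.53.

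**Figure D4:**
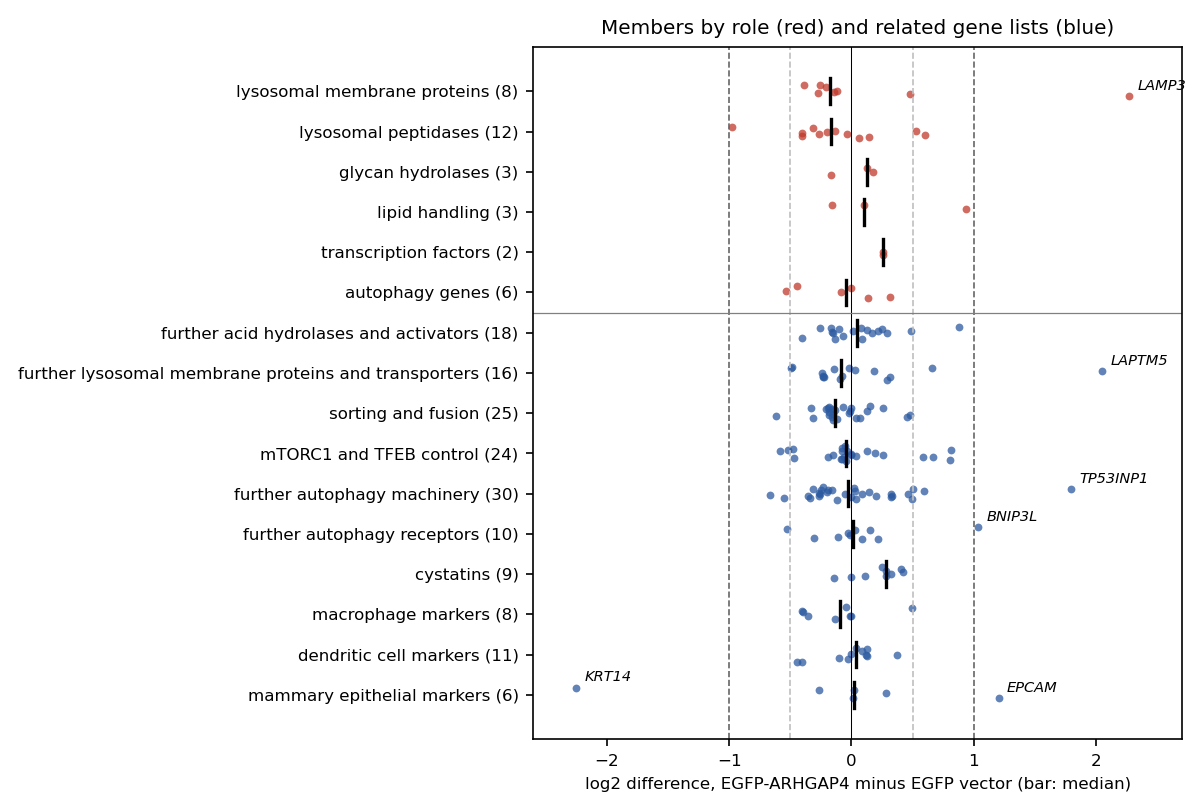
Points are the log2 differences, EGFP-ARHGAP4 minus EGFP vector, of the measured members by role (red) and of related lists outside chromosome 10 (blue), with the number of genes in brackets and a bar at the median. LAMP3, LAPTM5, TP53INP1 and BNIP3L are the lysosome and autophagy genes beyond 1, and the medians of the 6 related lysosome and autophagy lists lie between -0.14 and 0.04.

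Most measured markers of dendritic cells and macrophages, in which LAMP3 or many lysosomal genes are high, were under the level filter in both arrays. Of 15 dendritic cell markers 11 were measured, and 2 of the 11, CCR7 and CD83, were at or above the filter in each array; CCR7 was at 4.31 in EGFP-ARHGAP4 and 4.18 in EGFP vector, and CD83 at 5.38 in EGFP-ARHGAP4 and 5.79 in EGFP vector. The level of the 11, summed on the linear scale, was 131 in the EGFP-ARHGAP4 array and 143 in the EGFP vector array. Such a sum weighs the highest genes most, here CD83. The median log2 value of the 11 was 2.89 in EGFP-ARHGAP4 and 2.91 in EGFP vector. Of 16 macrophage markers 8 were measured, and 2 of the 8 in the EGFP-ARHGAP4 array and 3 in the EGFP vector array were at or above the filter. Their summed level was 109 in the EGFP-ARHGAP4 array and 124 in the EGFP vector array, and their median log2 value 3.19 and 3.21. The highest of them was CD14, at 5.48 in EGFP-ARHGAP4 and 5.84 in EGFP vector. SPI1 was at 4.24 in both arrays, and TYROBP was at 3.76 in EGFP-ARHGAP4 and 4.17 in EGFP vector. The other 5 macrophage markers were under the filter in both arrays, among them CD163, at 1.93 in EGFP-ARHGAP4 and 2.06 in EGFP vector. CSF1R, also among these 5, was at 3.91 in EGFP-ARHGAP4 and 3.41 in EGFP vector, 0.496 higher. It was the only 1 of the 8 above 0, while 6 were below 0. As deposited, neither list held a gene that differed by 0.5. Centring raises every difference by 0.0328, which takes CSF1R past 0.5. All 6 measured mammary epithelial markers, of 17 listed, were above the filter in both arrays. Of these, KRT5 was at 8.34 in EGFP-ARHGAP4 and 8.33 in EGFP vector, KRT14 at 6.96 in EGFP-ARHGAP4 and 9.21 in EGFP vector, and EPCAM at 7.79 in EGFP-ARHGAP4 and 6.58 in EGFP vector.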

How the data were processed

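Total RNA of 2 samples was extracted with a PureLink kit, amplified with the GeneChip whole-transcript kit and labelled with biotin, per the labels' protocols. The deposited table holds normalized log2 values for 44629 features. The labels name no normalization, summarisation or software. That the values are log2 was inferred from their range, since the deposited maximum, 12.8, is past the natural log of a 16-bit reading, 11.1. Platform annotation gave 1 symbol to 15835 features, all matched to RefSeq genes by Entrez identifier; log2 values of features sharing a symbol were averaged. Samples were grouped by their genotype label. Differences are EGFP-ARHGAP4 minus EGFP vector; no test is possible with 1 array per group, and the number of arrays limits the precision. The members, roles, related lists, thresholds and alternatives were chosen with earlier results of these data known. Named were all measured members, ARHGAP4 and LAPTM5, and, of each related list, up to 3 genes each way past 0.5; AKT1S1 and list genes given below 0.5 were named after their values were seen. Lists leave out chromosome 10 genes. Alternatives were quantile normalization, centring, a loess curve removed (span 0.3), the highest feature, other thresholds and a filter on the mean level. Calculations were tested on simulated data. Tools were Python 3.11.15, statsmodels 0.14.6, pandas 2.3.3, matplotlib 3.10.9 and numpy 2.4.6.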

Additional observations from a re-analysis of the deposited data

How the results depend on the processing

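No paired analysis was possible because each group has 1 array. The LAMP3 difference lay between 2.27 and 2.38 over the table as deposited, quantile normalization, centring and loess. Taking the highest feature could not change any of the 34 members, since each was measured by 1 feature. Under the other settings 32 of the 34 members kept their sign, the exceptions being LAMP1 and ATG7, which are near 0. CD68 moved past 0.5 with quantile normalization, centring and loess, and ATG5 inside it with quantile normalization and loess. With quantile normalization and with loess, 2 members were at least 2-fold higher, with GM2A at up to 1.07, and 1, CTSH, was lower by 0.5. With the filter on mean level 1 was lower by 0.5 as well, but this was ATG5, since CTSH lay under that filter. At 1.5-fold, 3 members were higher and 1 lower. With quantile normalization, centring and loess the median over the 34 members was -0.019, -0.071 and -0.015. Over genes past the filter the median was -0.016, -0.067 and -0.0023 under these settings, a shift of 0.098 at most. With quantile normalization the median was -0.066 for the peptidases and -0.021 for sorting and fusion. With loess it was -0.052 for the membrane proteins, -0.057 for the peptidases, 0.23 for lipid handling, -0.023 for sorting and fusion, 0.13 for the autophagy receptors and 0.14 for the epithelial markers. With the filter on mean level it was -0.13 for the further hydrolases and -0.14 for the dendritic cell markers, over fewer genes. The causes were not tested. The V-ATPase list gave no value.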

Other observations

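Cystatins inhibit cysteine cathepsins. All 9 listed cystatin genes were measured, 7 were above 0, or 77.8%, against 41.6% of all measured genes, and none differed by 0.5, with a median of 0.28. Of the 7, CST1 and CST5 were under the level filter in both arrays; past it 5 of 7 cystatins were above 0, or 71.4%, against 36.7% of genes past the filter. CST3, the secreted cystatin C, was at 7.88 in the EGFP-ARHGAP4 array and 7.47 in the EGFP vector array, CST6 at 4.89 in EGFP-ARHGAP4 and 4.47 in EGFP vector, and CSTA at 6.79 in EGFP-ARHGAP4 and 6.46 in EGFP vector. CSTB, the cytosolic inhibitor of cathepsins B, H and L, differed by -0.003, and CST2, past the filter, by -0.14. CST1, CST2, CST3, CST4, CST5 and CST7 all lie on chromosome 20. The part of a regional difference in their values was not tested. Several type 2 cystatin genes are close copies, so their features can share signal.

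Lysosome and autophagy genes of chromosome 10 were left out of the members and lists. PSAP, the precursor of the saposins that assist sphingolipid breakdown, was at 9.58 in the EGFP-ARHGAP4 array and 8.80 in the EGFP vector array, a difference of 0.77. NCOA4, the receptor for ferritin, differed by 0.52, NRBF2 by 0.48, BNIP3 by 0.48, VPS26A by 0.15 and OPTN by -0.32. The 20 genes past the level filter around PSAP had a median of 0.34, with 19 of 20 above 0, and those around OPTN a median of -0.96, with 2 of 20 above 0. The medians around NCOA4, NRBF2, BNIP3 and VPS26A were 0.17, 0.099, 0.18 and 0.24. The part of these regional differences in the values of the 6 genes was not tested.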
